A study of Neogale vison with 6 samples.

Results

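The Notch receptors, their ligands and the HES and HEY targets were examined in Mv1Lu, an epithelial cell line of the mink lung, as rows of the count table whose gene symbol was NOTCH1, NOTCH2, NOTCH3, JAG1, JAG2, DLL1, RBPJ, HES1, HEY1 or HEYL. Of these 10 symbols, 9 were found among the 24526 genes of the table. The symbol DLL1 was not found, although 6498 genes of the table carry no symbol. Control libraries were made from untreated cells (n = 3), and CD libraries (n = 3) from cells kept for 16 h under cholesterol depletion with 50 μM lovastatin, a statin that inhibits HMG-CoA reductase, and 50 μM mevalonate, in medium whose serum (10%) was freed of lipoproteins (LPDS). The labels do not name the serum of the control, and the parts of the treatment (statin, mevalonate, serum) cannot be told apart. All libraries came from the same cell line, and the labels do not say whether the replicates were separate cultures, so the p-values measure the spread between these libraries.

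Notch is a receptor that is cut when a ligand on a neighboring cell binds it. The released intracellular part enters the nucleus, where it joins RBPJ, which otherwise sits on DNA with corepressors, and switches on target genes. The best known targets are HES and HEY genes, which encode repressors of the basic helix-loop-helix class. In the airway epithelium the pathway is known for its role in the choice between secretory and ciliated cells.

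Under CD, the target genes HES1 and HEY1 of the list fell, by 2.16-fold and 2.39-fold, and RBPJ rose 2.14-fold, while the receptors NOTCH1 and NOTCH2 and the ligands JAG1 and JAG2 did not pass the test. Reads were compared with the quasi-likelihood test of edgeR over all genes with enough counts, and a gene was called at an adjusted p (Benjamini-Hochberg) under 0.05. Of the 9 genes found, 7 were tested, and NOTCH3 and HEYL were below the filter on low counts. Among the 7, 1 was called higher and 2 were called lower, 42.9% in all. Over all 12148 tested genes, 47.7% were called, 24.8% as higher and 22.9% as lower in CD, so the share of called members was near that of all genes. In 5 of the 7 members the CPM values (read counts relative to the TMM-scaled library size) of the CD libraries did not overlap with those of the control, against 58.0% of all tested genes. The median log2 fold change of the 7 members was -0.30, and that of all tested genes was 0.06. The plot of CPM by library shows the values behind these calls.

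**Figure D1:**
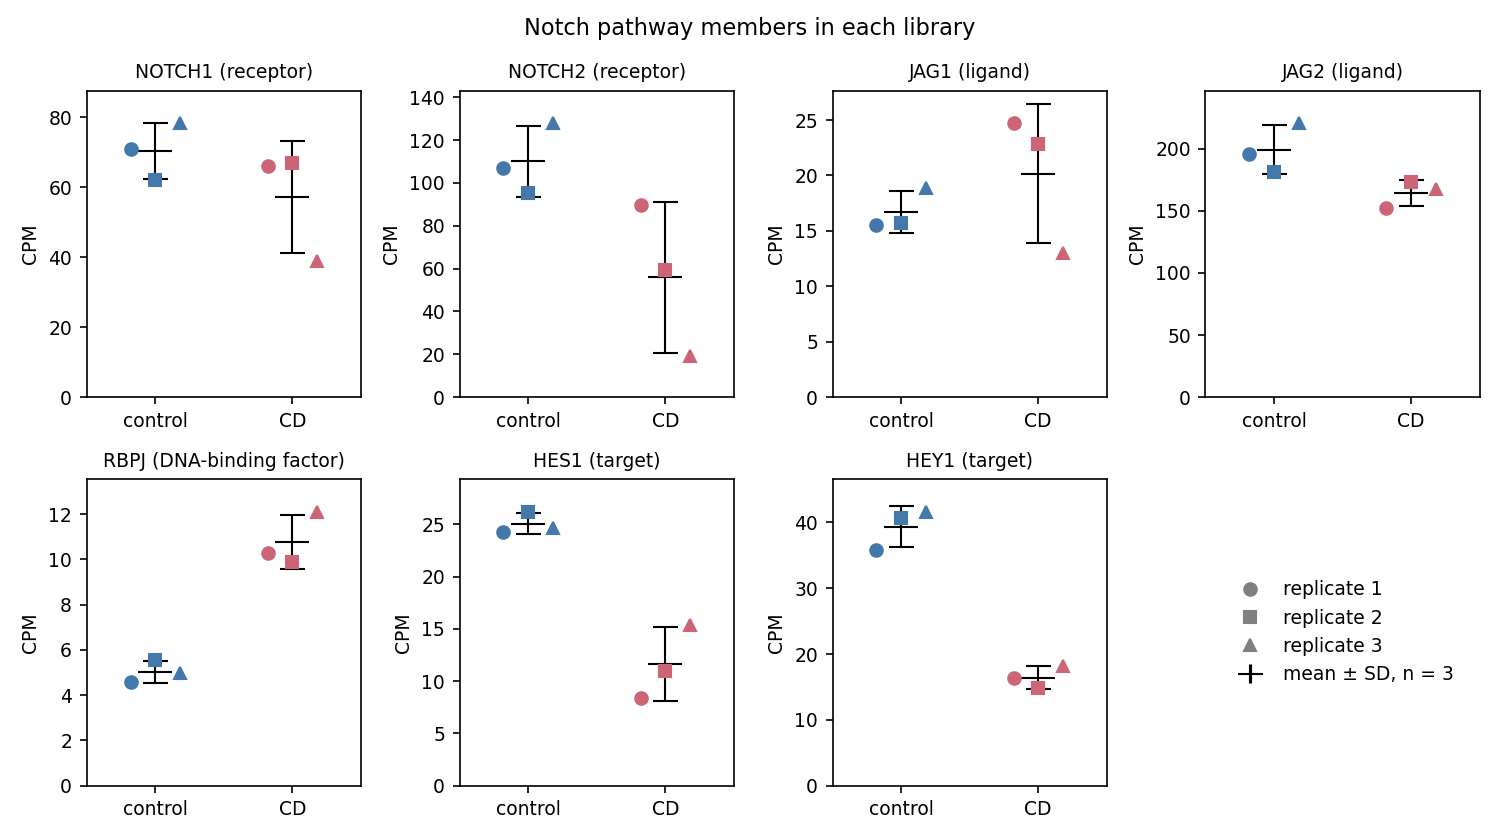
CPM (y axis, linear, from 0) of the 7 tested members in each library, by group (x axis). Symbols stand for replicates, and the bar with caps gives the mean ± SD of 3 libraries. The groups lie apart for NOTCH2, JAG2, RBPJ, HES1 and HEY1 and overlap for NOTCH1 and JAG1.

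Reads on genes numbered between 13473820 and 18633764 per library. CD replicate 3 stood apart from the other CD libraries. In it, 5.12% of the tested genes lay more than 2-fold below the mean of the other libraries of its group, whereas in the other 5 libraries this share was at most 0.634%. In both directions together, CD replicate 1 also deviated, as the SD over genes of the log2 difference from the mean of the other libraries of the group was 0.516 in CD replicate 3 and 0.447 in CD replicate 1, against 0.289 in CD replicate 2 and at most 0.268 in the control. CD replicate 3 also had 9.37% of unmapped reads, against 3.54% and 4.33% in CD replicates 1 and 2. In the control the unmapped share was between 4.25% and 18.4%. Results on the members that depend on CD replicate 3 are given below with and without it.

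HES1 encodes a repressor that is induced by Notch in many tissues and also limits its own transcription. In control replicates 1, 2 and 3, HES1 (ENSNVIG00000009231) was at 24.3, 26.2 and 24.7 CPM. In CD replicates 1, 2 and 3 it was at 8.41, 11.0 and 15.4 CPM. Every CD library was thus below every control library, with CD replicate 3 the nearest to the control. The log2 fold change was -1.11 (standard error 0.21, adjusted p = 0.0018, edgeR), or 2.16-fold lower. The coefficient of variation was 4.11% in the control and 30.4% in CD.

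HEY1 encodes a related repressor that pairs with HES proteins. HEY1 (ENSNVIG00000021616) was at 35.8, 40.7 and 41.6 CPM in the control libraries. In the CD libraries it was at 16.3, 14.8 and 18.2 CPM. The groups did not overlap, and the CD libraries were close to each other. The log2 fold change was -1.26 (standard error 0.14, adjusted p = 7.59e-05, edgeR), or 2.39-fold lower.

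None of the 16 other settings tried, among them the loss of any 1 library, ended either call. With 1 library left out, the log2 fold change lay between -1.40 and -0.91 for HES1 and between -1.37 and -1.22 for HEY1. As bulk RNA was sequenced, a fall in every cell and a loss from a part of the cells cannot be told apart. HEYL (ENSNVIG00000014595), a relative of HEY1, was counted once in the control and never under CD, where 0 reads allow up to 0.0649 CPM (3 counts over the group, counting error only), so no change was detectable at this depth.

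RBPJ is the DNA-binding factor on which signals from all Notch receptors converge. RBPJ (ENSNVIG00000013517) was at 4.58, 5.56 and 4.96 CPM in the control libraries. It was at 10.3, 9.87 and 12.1 CPM in the CD libraries. The groups were far apart relative to their spread, with a coefficient of variation of 9.82% in the control and 10.9% in CD. The log2 fold change was 1.09 (standard error 0.18, adjusted p = 0.00084, edgeR). This rise was called under all 16 alternative settings, and the value stayed between 0.97 and 1.17 with 1 library left out. RBPJ thus moved in the opposite direction to HES1 and HEY1.

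NOTCH2 (ENSNVIG00000009002), one of the receptors, was at 107, 95.1 and 128 CPM in the control libraries. In the CD libraries it was at 89.5, 59.3 and 19.1 CPM. All CD libraries were below the control, but they spread widely, with an SD of 35.3 CPM against 16.5 CPM in the control. The fall was 1.96-fold, a log2 fold change of -0.97 with a 95% confidence interval of -1.89 to -0.06, and it was not called (adjusted p = 0.0747, edgeR), the interval being one for a single gene, without adjustment. The low value came from CD replicate 3, in which the log2 CPM of NOTCH2 was 1.93 below the mean of CD replicates 1 and 2 (a difference of -1.93). Only 0.189% of the tested genes lay as far below or further. Without CD replicate 3 the log2 fold change was -0.60 and NOTCH2 was called (adjusted p = 0.00297, edgeR). Without CD replicate 1 it was -1.47 (adjusted p = 0.0085, edgeR), and without CD replicate 2 it was -1.06 and not called (adjusted p = 0.118, edgeR). The direction was the same in all 16 alternative settings, and the call was made in 4 of them (adjusted p between 0.00297 and 0.344).

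NOTCH1 (ENSNVIG00000010812), the receptor most studied in epithelia and in T cells, was at 70.9, 62.2 and 78.3 CPM in the control libraries. It was at 66.2, 67.0 and 38.9 CPM in the CD libraries. CD replicates 1 and 2 fell inside the control range and CD replicate 3 below it. The log2 fold change was -0.30 with a 95% confidence interval of -0.74 to 0.15 (adjusted p = 0.247, edgeR), and NOTCH1 was called in none of the 16 alternative settings (adjusted p between 0.128 and 0.519). Without CD replicate 3 the value was -0.12 (adjusted p = 0.394, edgeR). NOTCH3 (ENSNVIG00000011559) had 1 read in each control library and 0 reads in the CD libraries, which allows up to 0.0649 CPM in CD. At this depth a difference in NOTCH3 was not detectable.

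JAG1 and JAG2 encode transmembrane ligands of the jagged type. JAG1 (ENSNVIG00000017758) was at 15.5, 15.7 and 18.9 CPM in the control libraries. It was at 24.7, 22.8 and 13.0 CPM in the CD libraries. CD replicates 1 and 2 lay above all control libraries and CD replicate 3 below all of them. The log2 fold change was 0.27 with a 95% confidence interval of -0.24 to 0.79 (adjusted p = 0.359, edgeR). Without CD replicate 3 it was 0.47 and JAG1 was called higher (adjusted p = 0.00752, edgeR), the only one of the 16 alternative settings with a call. Leaving out CD replicate 1 gave 0.11, and leaving out CD replicate 2 gave 0.14, neither of them called (adjusted p = 0.704, the highest of the settings, and 0.694, edgeR).

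JAG2 (ENSNVIG00000007018) was at 196, 181 and 221 CPM in the control libraries. In the CD libraries it was at 152, 173 and 168 CPM. The groups did not overlap, and CD replicate 3 lay among the other CD libraries. The difference was small, with a log2 fold change of -0.28 and a 95% confidence interval of -0.54 to -0.02, and JAG2 was not called (adjusted p = 0.0735, edgeR). Scaling by total counts gave -0.26 and a call (adjusted p = 0.0457, edgeR), as did the omission of CD replicate 3, with -0.33 (adjusted p = 0.0106, edgeR). The adjusted p of JAG2 was at most 0.267 among the alternative settings. Without CD replicate 3, 58.6% of all tested genes were called, so that calls were more frequent in the whole table as well.

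**Figure D2:**
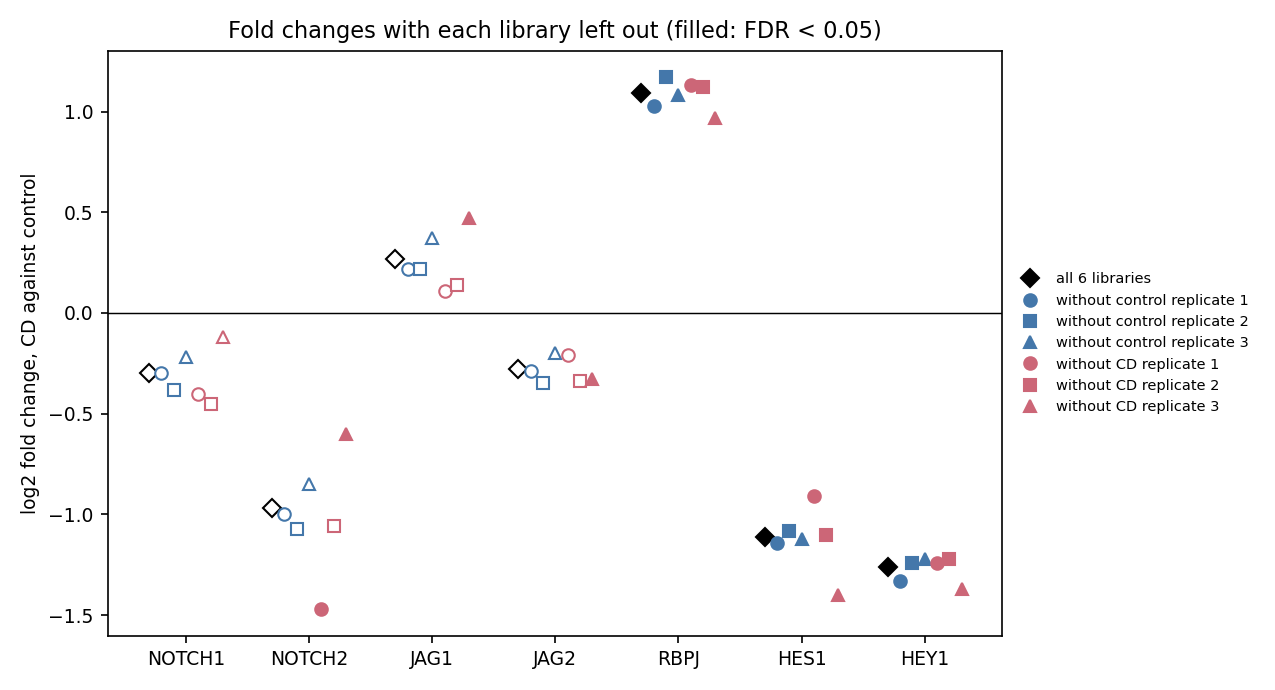
Log2 fold change of CD against control (y axis) of the 7 tested members (x axis), with all 6 libraries (black) and with each library left out (blue for control, red for CD, symbols by replicate); filled symbols were called at an adjusted p under 0.05 in edgeR. RBPJ, HES1 and HEY1 were called throughout, while NOTCH2, JAG1 and JAG2 were called without CD replicate 3, and NOTCH2 also without CD replicate 1.

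CD replicate 3 did not move all members alike. Against the mean of CD replicates 1 and 2, the difference in its log2 CPM was -0.77 for NOTCH1 and -0.86 for JAG1. Of the tested genes, 9.66% and 7.76% lay as low or lower. For JAG2, HEY1 and RBPJ the differences were 0.05, 0.22 and 0.26, in the middle part of the distribution of all genes. HES1 was higher in CD replicate 3 by 0.67, and 95.3% of the tested genes lay at or below this value. Over all tested genes the median of this difference was 0.00, with a range of -3.27 to 3.13. The part that this library's unmapped reads have in these differences was not tested.

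**Figure D3:**
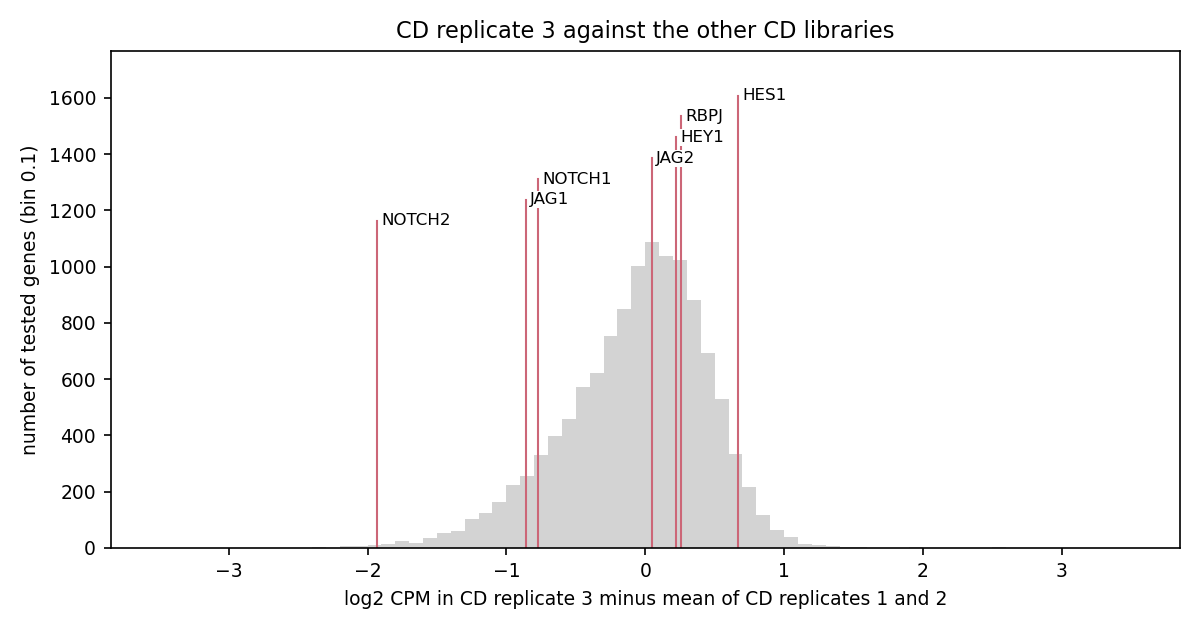
Histogram over the 12148 tested genes (y axis, number of genes in bins of 0.1) of the log2 CPM in CD replicate 3 minus the mean of CD replicates 1 and 2 (x axis). Red lines mark the 7 tested members, of which NOTCH2 lies in the far lower tail at -1.93, JAG1 and NOTCH1 in the lower part, and HES1 in the upper part at 0.67.

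Ratios of members within a library do not depend on the scaling between libraries. Since DLL1 was not found and NOTCH3 and HEYL had too few reads, the ratio could be followed for 3 pairs. The log2 ratio of NOTCH1 to NOTCH2 reads was -0.60, -0.61 and -0.71 in the control libraries. Under CD it was -0.43, 0.17 and 1.03, and all CD libraries had relatively more NOTCH1 reads. The difference was 0.89, and the exact two-sided permutation test gave p = 0.1, the smallest that 3 libraries against 3 allow (0.3 adjusted over the 3 ratios). Omission of CD replicate 3 gave 0.51, and omission of CD replicate 1 gave 1.24. For JAG1 to JAG2 the control libraries were at -3.65, -3.53 and -3.54 and the CD libraries at -2.62, -2.92 and -3.68. Here CD replicate 3 was on the control side, and the difference was 0.50 (exact two-sided permutation test, p = 0.4, adjusted 0.6). Omitting CD replicate 3 gave 0.80, and omitting CD replicate 1 gave 0.27. The log2 ratio of HES1 to HEY1 was -0.56, -0.63 and -0.75 in the control libraries, with -0.95, -0.43 and -0.24 under CD, so that CD replicate 1 lay below and CD replicates 2 and 3 above all control libraries. The difference of the means was 0.11 (exact two-sided permutation test, p = 0.7, adjusted 0.7), with -0.04 when CD replicate 3 was left out and 0.32 when CD replicate 1 was.

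The other genes of the pathway were followed as a list of 63 genes by role, of which 53 were found by their exact symbol and 41 tested. By the gene descriptions in the table, at least ADAM10, PSENEN and POGLUT1 stand there under the names ADA10, PEN2 and PGLT1. These were left out of the counts below and were not called, with log2 fold changes of -0.14, 0.11 and 0.26 (adjusted p = 0.701, 0.611 and 0.223, edgeR). The edgeR test called 12 of them higher and 5 lower, which is 29.3% and 12.2% of the tested genes, against the 24.8% and 22.9% of all genes given above. The list had a median log2 fold change of 0.20. Leaving out CD replicate 3 gave 18 higher and 7 lower genes, while over all 12330 genes tested in that setting 3616 were higher and 3606 lower (58.6% in all).

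The counts by role below rest on few genes each and are given beside the 47.7% of all tested genes that were called. Of the 12 genes called higher, NOTCH4 passed the filter on low counts only through the CD libraries, so its call is no independent sign of its direction. The same holds for LFNG, called lower, which passed this filter only through the control libraries.

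Of 4 tested enzymes that glycosylate Notch in the secretory pathway, 2 were lower (50.0%, against 22.9% of all genes). Among them was the tested gene of the list with the lowest log2 fold change. LFNG, a Fringe enzyme that elongates O-linked fucose on the receptor and thereby alters which ligands it responds to, was at 4.58, 3.61 and 5.40 CPM in the control and at 0.798, 0.736 and 0.648 CPM in the CD libraries. The CD values were close together and far below the control, and the log2 fold change was -2.63 (standard error 0.27, adjusted p = 3.47e-05, edgeR). As LFNG had 9 reads in CD replicate 3, it passed the filter on low counts only through the control libraries. Its call is thus no independent sign of its direction. POFUT1, which adds the O-fucose that Fringe enzymes elongate, was at 53.8, 49.3 and 65.3 CPM in the control and at 23.0, 20.4 and 14.0 CPM in the CD libraries, a log2 fold change of -1.55 (standard error 0.19, adjusted p = 0.000135, edgeR). The other Fringe enzymes, MFNG and RFNG, were not called, with log2 fold changes of -0.27 and 0.12.

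Of 6 tested genes that process and cut the receptor, 2 were lower (33.3%, against 22.9% of all genes) and 4 were not called. FURIN, the convertase that cuts the receptor on its way to the cell surface, averaged 1118 ± 126 CPM without CD and 438 ± 52.8 CPM with CD (SD, n = 3), and its log2 fold change was -1.35 (adjusted p = 4e-05, edgeR). FURIN has many other substrates. APH1A, a subunit of γ-secretase, had a log2 fold change of -0.50 (adjusted p = 0.00499, edgeR). The subunit NCSTN and the sheddase ADAM17 were not called, with log2 fold changes of -0.14 and 0.38.

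Among 8 tested genes of receptor sorting and turnover, 4 were higher (50.0%, against 24.8% of all genes) and 4 were not called. FBXW7, the ubiquitin ligase subunit that marks the nuclear Notch fragment for degradation, was at 12.7, 14.6 and 11.5 CPM in the control and at 28.1, 21.1 and 33.5 CPM in the CD libraries. The groups did not overlap, and the log2 fold change was 1.09 (standard error 0.19, adjusted p = 0.00123, edgeR). DTX3L of the Deltex family rose by a log2 fold change of 0.95 (adjusted p = 0.000327, edgeR), and the ubiquitin ligase ITCH by 0.79 (adjusted p = 0.00467, edgeR). NUMBL rose by 0.45 (adjusted p = 0.01, edgeR), and its relative NUMB, an adaptor known to oppose Notch, had a log2 fold change of -0.23 and was not called. NUMBL was not called without control replicate 2 or CD replicate 2, with log2 fold changes of 0.42 and 0.33.

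In the nucleus, 2 of 8 tested coactivators were higher and 1 was lower (25.0% and 12.5%, against 24.8% and 22.9% of all genes). MAML3, of the Mastermind family that bridges Notch and RBPJ, went up 1.51 on the log2 scale, being at 1.07 ± 0.360 CPM without and 3.11 ± 0.831 CPM with CD (SD, n = 3, adjusted p = 0.00304, edgeR). MAML1 and MAML2 had log2 fold changes of 0.20 and 0.43 and were not called. MAML2 was at 6.44, 5.35 and 6.44 CPM in control libraries and at 13.7, 8.46 and 2.30 CPM in CD replicates 1, 2 and 3, so that CD replicate 3 alone lay below the control, and only 0.0576% of the tested genes were as low or lower in it relative to the other CD libraries. The acetyltransferase genes KAT2A and KAT2B went opposite ways. KAT2A fell by 0.73 (a log2 fold change of -0.73, adjusted p = 0.000503, edgeR), and KAT2B had a value of 0.79 (adjusted p = 0.0417, edgeR) with groups that overlapped and no call in 8 of 16 alternative settings, among them the omission of any control library or of CD replicate 1 or 2. Without CD replicate 1 the log2 fold change of KAT2B was 0.40, and in the other omissions that ended the call it lay between 0.69 and 0.86.

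Of 10 tested corepressors, 3 were higher (30.0%, against 24.8% of all genes) and 7 were not called. CIR1, which binds RBPJ and recruits histone deacetylases, was at 14.7, 12.4 and 12.3 CPM in the control and at 25.9, 28.3 and 45.6 CPM in the CD libraries, with no overlap, and rose by 1.34 on the log2 scale (standard error 0.22, adjusted p = 0.000806, edgeR). TLE1, a Groucho corepressor that binds HES proteins, rose by 0.79 (adjusted p = 0.00258, edgeR), and CTBP2 by 0.48 (adjusted p = 0.0171, edgeR). CTBP2 was not called without any 1 of the control libraries or without CD replicate 2, with log2 fold changes between 0.37 and 0.48. SPEN and NCOR1, large corepressors of the RBPJ complex, were not called, with log2 fold changes of 0.30 and -0.09.

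Of 10 further HES and HEY genes and other targets on the list, 6 were found and 2 tested, HES6 and BHLHE40. Both were higher in CD, opposite to HES1 and HEY1. Whether HES6 and BHLHE40 respond to Notch in this line was not tested. The symbols HES4, HES5, NRARP and BHLHE41 were not found and these genes were not analysed here. HES6, a family member that can bind HES1 and relieve its repression, was at 21.3, 21.2 and 20.9 CPM in the control and at 62.3, 78.7 and 80.5 CPM in the CD libraries. All CD libraries were well above the control, and the log2 fold change was 1.80 (standard error 0.14, adjusted p = 5.92e-06, edgeR), or 3.49-fold. BHLHE40, which also responds to hypoxia and the circadian clock, rose by 0.92 on the log2 scale (adjusted p = 0.000616, edgeR). HES2, HES3, HES7 and HEY2 had at most 4 reads in any library. NOTCH4, the remaining receptor and known from endothelium, had 4, 5 and 6 reads without CD and 16, 17 and 13 reads with CD, a log2 fold change of 1.58 at very low counts (adjusted p = 0.00274, edgeR). Of the 2 tested genes of ligand endocytosis, MIB1 and MIB2, neither was called by edgeR at an adjusted p under 0.05, with log2 fold changes of 0.39 and 0.19.

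**Figure D4:**
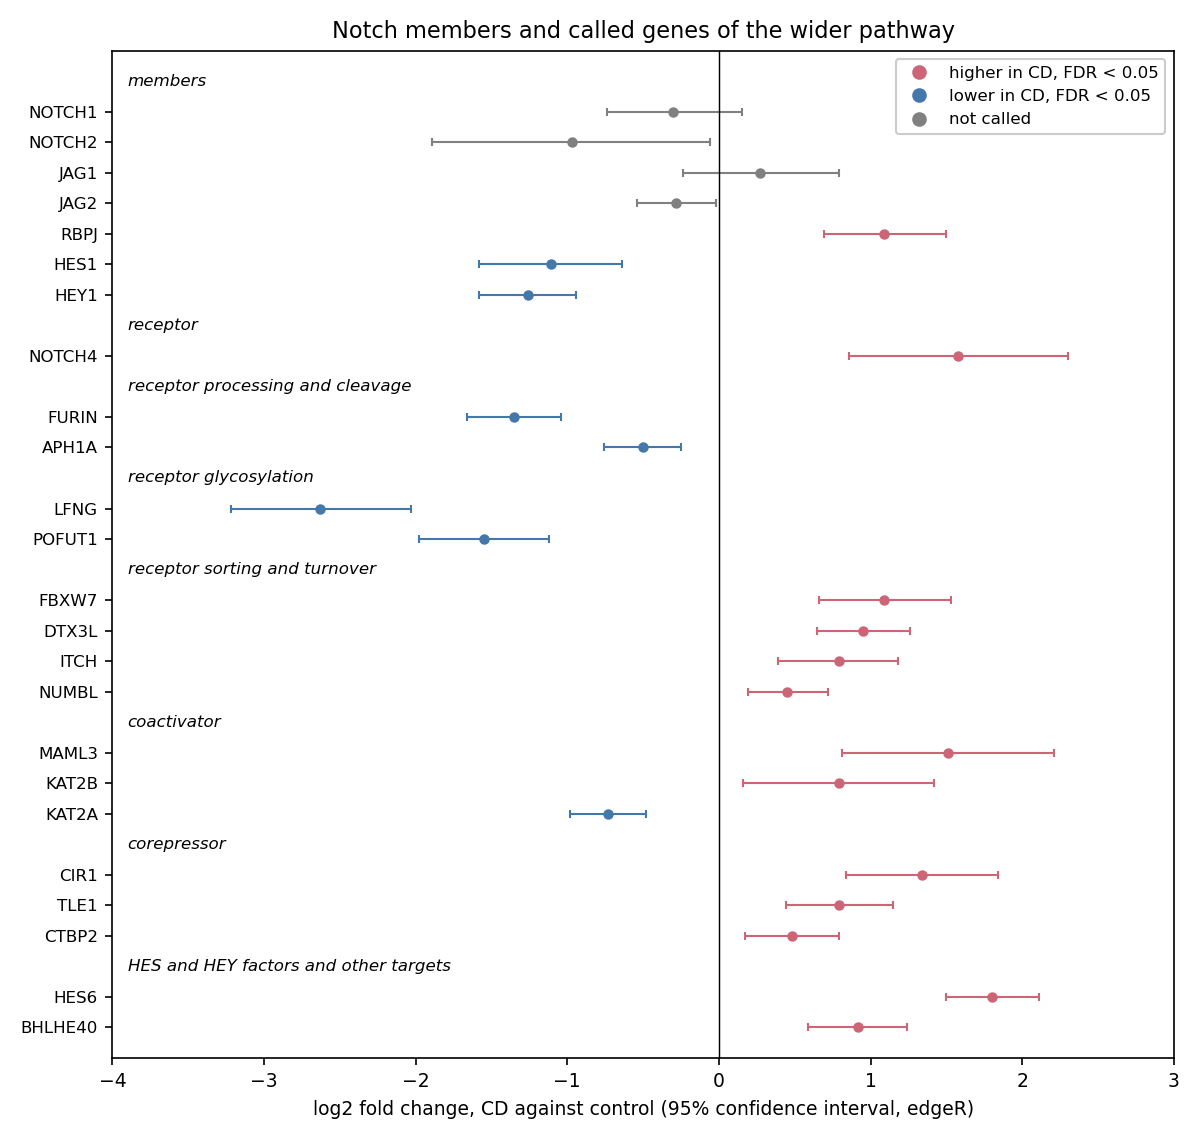
Effect of CD (x axis, log2 fold change over control, edgeR) and 95% confidence interval for the 7 tested members and the 17 called genes of the wider pathway, grouped by role (y axis); red marks genes called higher, blue lower and grey not called. LFNG lies lowest at -2.63 and HES6 highest at 1.80. LFNG passed the filter on low counts only through the control libraries, and NOTCH4 only through the CD libraries.

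The cell type of the line was checked with lists of markers. Of the epithelial markers, EPCAM and CDH1 were at most 0.286 and 0.432 CPM in any library, so that these defining genes were near 0. The symbols KRT8 and KRT18 were not found, whereas KRT19 was between 379 and 1010 CPM and was lower in CD (log2 fold change -1.03, adjusted p = 0.000274, edgeR), and CLDN4 was higher (3.55, adjusted p = 9.61e-06, edgeR). The summed level of 6 fibroblast genes, mostly COL1A2, was 227 to 276 CPM in control and 159 to 201 CPM in CD libraries. Of the 4 tested, 3 were lower, against 22.9% of all genes, and PDGFRA was not called. DCN and LUM were near 0 and not tested, with higher means in CD (0.328 and 0.758 CPM) than in the control (0.0608 and 0.145 CPM). Of 5 endothelial genes, PECAM1, CDH5 and KDR were at or near 0 (at most 0.307 CPM), and the tested ones went opposite ways, VWF being higher in CD (log2 fold change 3.38, adjusted p = 0.000882, edgeR) and TEK lower (-1.08, adjusted p = 0.000527, edgeR). Their sum, mostly TEK, was 206 to 221 CPM in the control and 75.9 to 124 CPM in CD. Of the 3 leukocyte genes found, PTPRC was near 0 and CD68 and CD14 were higher in CD, with sums of 5.20 to 5.84 CPM and 17.6 to 23.3 CPM. Among airway secretory genes, SCGB1A1 was at 1.21 to 1.59 CPM in the control and 0.430 to 0.858 CPM in CD (log2 fold change -1.21, adjusted p = 0.0125, edgeR), and SCGB3A2 and SPDEF had 0 reads in all libraries. The ciliated cell factor FOXJ1 was at most 0.368 CPM, and the sum of 5 ciliated cell genes, mostly MCIDAS, was 11.1 to 13.6 CPM in the control and 9.83 to 11.8 CPM in CD, with no call by edgeR for MCIDAS, the 1 gene tested (log2 fold change -0.28, adjusted p = 0.226). Of the basal cell genes, KRT5 had 0 reads, TP63 and NGFR had at most 1 read in any library, and KRT14 was higher in CD (log2 fold change 2.23, adjusted p = 1.68e-06, edgeR). The 4 neuroendocrine genes summed to at most 0.648 CPM. VWF, CD14 and CLDN4 passed the filter on low counts through the CD libraries and SCGB1A1 through the control libraries, so that their calls are no independent sign of direction. The part of these shifts in the changes of HES1, HEY1 and RBPJ was not tested.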

How the data were processed

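RNA of 3 control and 3 CD libraries was sequenced by the authors, who per the labels and methods isolated poly(A) mRNA, trimmed reads with fastp 0.20.1, aligned them with STAR 2.7.2a and used DESeq2 1.30.1 in R 4.0.3. The read counter and its strand setting are not given in the sources used here, so counts of overlapping or antisense genes are uncertain. The authors deposited raw counts and, per library, a normalized signal (count divided by a size factor). The signal gave whole reads for 100% of 147156 values (within 0.01 reads), equal to the counts by row order rather than by its identifiers. It served only for alternatives.

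The 4 rows that name no gene (29.3% to 47.2% of reads) were left out. Counts were filtered with filterByExpr (minimum count 10, minimum total 15), scaled by TMM and tested with glmQLFit (robust) and glmQLFTest of edgeR 4.0.16 in R 4.3.3, with condition as the only term and adjustment over all tested genes. The standard error was the log2 fold change divided by the root of F (median 0.18). Ratios used a pseudocount of 0.5. Alternatives also used limma 3.58.1 and DESeq2 1.42.0. The code was tested on simulated data.

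Members, gene lists, marker lists and tests were chosen with earlier results of these data known. All 10 members and, by role, the genes of the wider pathway that were called are named, with others given as examples of a role, chosen after their values were seen. CPM compares libraries, not genes, as gene lengths were not used. Some genes of these lists are not reported here by name.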

Additional observations from a re-analysis of the deposited data

How the results depend on the processing

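Across 16 alternative settings (DESeq2, limma-voom, other scalings and filters, the deposited normalized values, the replicate number as a block and each library left out), the calls of RBPJ, HES1 and HEY1 kept their direction and stayed under an adjusted p of 0.05, and no log2 fold change of a tested member or of a called gene of the wider pathway changed sign. NOTCH4 and MAML3 were tested in 15 of the settings, as they fell under the stricter filter of 50 counts in 3 libraries. Without CD replicate 3, the number of members called was 2 higher (RBPJ and JAG1) and 4 lower (HES1, HEY1, NOTCH2 and JAG2), in place of 1 and 2, while calls over all genes also rose, to 58.6%. With each library left out in turn these numbers ranged from 1 to 2 and from 2 to 4. The log2 ratio of HES1 to HEY1 changed by 0.11 with all libraries and by -0.04 without CD replicate 3, the lowest value of the omissions, against a highest of 0.32 without CD replicate 1. An FDR of 0.01 left 2006 genes higher in the whole table, in place of 3016, while edgeR on the reads recovered from the normalized values called 3016 higher and 2784 lower. The median log2 fold change of all genes stayed between 0.01 and 0.09, and between 49.0% and 54.5% of calls were higher. The cause of these differences was not tested.

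Same-numbered control and CD libraries did not deviate together (correlations of -0.02, -0.33 and -0.18 over the tested genes), so the numbers were not taken as pairs. With the replicate number as a block, 2772 genes were higher and 2636 lower, members stayed at 1 higher and 2 lower, and the wider pathway had 12 higher and 6 lower. Members near the depth limit, NOTCH3 and HEYL, could not be tested.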
